A study of Mus musculus with 8 samples.

Results

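Chemokines are small secreted proteins that draw leukocytes towards their source, and Csf1 encodes the growth factor on which most macrophages depend. The genes described here are 10 such stromal signal genes, Ccl2, Ccl7, Ccl9, Ccl11, Cxcl1, Cxcl5, Cxcl12, Cxcl14, Cx3cl1 and Csf1, picked by gene name from the 54532 genes of the deposited count table. The cells were mouse embryonic fibroblasts of wild-type genotype, primary cells grown out of embryos, and their RNA was sequenced on day 4 of culture. There were 4 media and 2 libraries of each. All 3 cocktails contained CFAE, which stands for CHIR99021, an activator of Wnt signalling that blocks glycogen synthase kinase, Forskolin, which raises cyclic AMP, AM580, a retinoic acid receptor agonist, and EPZ04777, as the labels spell it, which inhibits DOT1L, a histone methyltransferase. CFAE+8+MSC also held A-83-01 and MSC2530818, a CDK8 inhibitor. CFAE+6 also held E-616452, and CFAE+8 also held A-83-01. Both of these compounds block the TGF-beta type I receptor. The MEF libraries came from fibroblasts kept in MEF medium with no cocktail. The labels give no doses, no embryo age and no strain, and they do not say whether paired libraries are separate cultures. The p-values below therefore reflect only how far these samples spread, and that spread may be technical.

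Library totals ran from 10958430 to 11913143 counts. The libraries of a medium differed by more than counting noise, with 1.88 to 2.71 for chi-square divided by its degrees of freedom over genes, and none were merged. Mitochondrial transcripts took 1.96% to 2.21% of counts in the cocktail libraries and 1.21% to 1.24% in the MEF libraries. All 10 fibroblast markers checked, among them Col1a1, Col3a1, Pdgfra and Thy1, had counts in every medium, with summed levels of 11880.5 to 13227.5 CPM (counts scaled to library size) in the cocktails and 30407 and 31166 CPM in MEF.

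The chemokines are sorted by the spacing of their first cysteines. CC chemokines such as Ccl2 and Ccl7 attract monocytes through the receptor Ccr2, Ccl11 attracts eosinophils through Ccr3, and Ccl9 is a mouse ligand of Ccr1. CXC chemokines with the residues Glu-Leu-Arg before the cysteines, such as Cxcl1 and Cxcl5, attract neutrophils through Cxcr2, while Cxcl12 holds blood progenitors in their niche through Cxcr4 and Cxcl14 is made by many resting epithelia and stromal cells. Cx3cl1 is made as a membrane protein and can be shed by the proteases Adam10 and Adam17. Csf1 acts through the receptor Csf1r and is not a chemokine.

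The family of each chemokine can be read in its coding sequence (GENCODE M21, mm10), shown here around the defining cysteine codons, which are in capitals. In the CC genes the cysteine codons are adjacent. In the CXC genes 1 codon stands between them, and in Cx3cl1 3 codons do. In Cxcl1 and Cxcl5 the codons just before the motif, gagctgcgc and gagctgcgt, spell Glu-Leu-Arg.
Ccl2: gccccactcaccTGCTGCtactcattcacc
Ccl7: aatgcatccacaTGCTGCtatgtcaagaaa
Ccl9: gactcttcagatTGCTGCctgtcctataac
Ccl11: atcccaacttccTGCTGCtttatcatgacc
Cxcl1: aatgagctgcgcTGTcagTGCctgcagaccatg
Cxcl5: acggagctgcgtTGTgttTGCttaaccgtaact
Cxcl12: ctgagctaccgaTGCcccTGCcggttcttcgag
Cxcl14: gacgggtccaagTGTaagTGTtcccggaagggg
Cx3cl1: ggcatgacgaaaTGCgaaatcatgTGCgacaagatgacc

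The 4 media gave different mixtures of these signals. Together the 10 genes took 285 and 271 CPM in CFAE+8+MSC, 237 and 225 CPM in CFAE+6, 324 and 329 CPM in CFAE+8, against 1648 and 1677 CPM in MEF. Per transcript length, Cxcl14 was the highest of the 10 in MEF at 989 ± 5.53 TPM (counts scaled to gene length and library size, SD, n = 2), followed by Ccl7 at 454 ± 7.73, Ccl2 at 336 ± 8.49, Csf1 at 230 ± 3.70 and Cxcl12 at 169 ± 7.21 TPM. In CFAE+8 the order was led by Ccl2 at 275 ± 9.04 TPM and Ccl7 at 225 ± 3.01 TPM, with Csf1 at 79.3 ± 0.0685 and Cxcl14 at 23.8 ± 0.790 TPM. In CFAE+8+MSC, Ccl7 came first at 291 ± 30.6 TPM, then Cxcl14 at 129 ± 3.68 and Ccl2 at 118 ± 5.64 TPM. In CFAE+6 Ccl7 also came first, at 199.65 ± 4.75 TPM, then Cxcl14 at 96.7 ± 2.35 and Ccl2 at 83.4 ± 15.7 TPM. There the libraries had 98.4 and 95.1 TPM of Cxcl14 and 94.6 and 72.3 TPM of Ccl2. The difference between these genes was not tested. As a share of the summed CPM of the 10 genes, Cxcl14 made up 24.7% and 25.4% in CFAE+8+MSC, 22.7% and 23.3% in CFAE+6, only 3.77% and 3.86% in CFAE+8, and 33.9% and 33.6% in MEF. These are bulk libraries, in which fewer cells making a transcript and less of it per cell cannot be told apart.

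**Figure D1:**
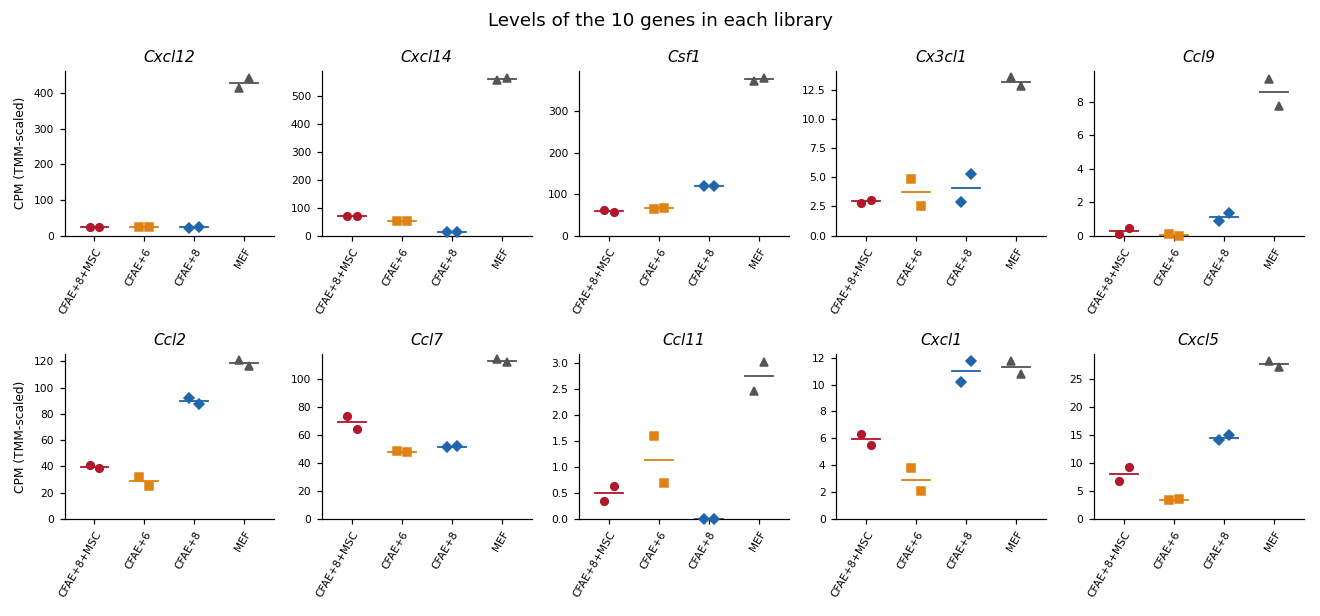
CPM (scaled by TMM, vertical axes from 0) of the 10 genes in each library of CFAE+8+MSC, CFAE+6, CFAE+8 and MEF, with points for the 2 libraries and lines for their mean. For Cxcl1, CFAE+8 libraries at 10.2 and 11.8 CPM overlap MEF libraries at 11.8 and 10.8 CPM. The 10 genes were chosen with earlier results of these data known.

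The comparison of each cocktail with MEF asked how these signals differed on day 4 between cocktail and MEF medium. The compounds and any difference in base medium cannot be told apart in it. Every one of the 10 genes fell in CFAE+8+MSC and in CFAE+6, and 9 of 10 fell in CFAE+8, with no gene higher. The tests were edgeR quasi-likelihood tests over 15470 genes, with a gene called below an adjusted p of 0.05. All 10 genes passed the filter on low counts. Of all genes tested, 64.1% were called in CFAE+8+MSC, 31.9% higher and 32.2% lower. In CFAE+6 63.1% were called, 31.6% higher and 31.5% lower, and in CFAE+8 62.0%, 30.8% higher and 31.3% lower. The median log2 change of the 10 genes was -2.32 in CFAE+8+MSC, -2.29 in CFAE+6 and -1.67 in CFAE+8, where the median of all genes tested was 0.011, 0.018 and 0.012. The 10 genes were chosen with earlier results of these data known. Their counts and medians describe the chosen genes and are not a test of them as a set. The 3 comparisons share the MEF libraries and are not independent of each other.

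Cxcl12 was the most uniform. Its gene lies on chromosome 6 (117168535 to 117181367, plus strand, ENSMUSG00000061353). It had 23.3 and 23.9 CPM in CFAE+8+MSC, 24.6 and 24.7 CPM in CFAE+6, 20.8 and 24.6 CPM in CFAE+8, against 415 and 442 CPM in MEF. All 6 cocktail libraries lay close together and far below both MEF libraries. The level was 18.2-fold lower in CFAE+8+MSC (log2 change -4.18 ± 0.07, SE), 17.4-fold lower in CFAE+6 (-4.12 ± 0.07) and 18.9-fold lower in CFAE+8 (-4.24 ± 0.07), each with an edgeR adjusted p of 4.19e-28 or smaller. Between cocktails no difference was found: the log2 change was 0.05 for CFAE+8+MSC against CFAE+8 (95% interval -0.14 to 0.25, adjusted p = 0.724) 0.12 for CFAE+6 against CFAE+8 (-0.07 to 0.31, adjusted p = 0.394) and -0.06 for CFAE+8+MSC against CFAE+6 (-0.26 to 0.13, adjusted p = 0.745).

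Cxcl14 also fell against MEF in all 3 cocktails, but by unequal amounts. Its gene lies on chromosome 13 (56288643 to 56296551, minus strand, ENSMUSG00000021508). Levels were 70.6 and 68.8 CPM in CFAE+8+MSC, 53.6 and 52.4 CPM in CFAE+6, 12.2 and 12.7 CPM in CFAE+8, against 559 and 563 CPM in MEF. No 2 media overlapped. The level was 8.05-fold lower in CFAE+8+MSC (log2 change -3.01 ± 0.06, adjusted p = 2.15e-27), 10.6-fold lower in CFAE+6 (-3.40 ± 0.06, adjusted p = 2.08e-28) and 45.0-fold lower in CFAE+8 (-5.49 ± 0.07, adjusted p = 2.72e-31). Set directly against CFAE+8, Cxcl14 was 5.59-fold higher in CFAE+8+MSC (log2 change 2.48 ± 0.08, adjusted p = 3.40e-20) and 4.25-fold higher in CFAE+6 (2.09 ± 0.08, adjusted p = 1.09e-17). Of the 10 genes it had the largest fold rise against CFAE+8 among those with counts in all groups. Mesothelial markers are 8 genes of the lining of body cavities. Their summed level was 51.6 and 46.5 CPM in CFAE+8+MSC, 39.9 and 40.9 CPM in CFAE+6, 12.4 and 11.4 CPM in CFAE+8, against 152 and 155 CPM in MEF. Of these 8 markers, 6 were higher in CFAE+8+MSC and 5 in CFAE+6 than in CFAE+8. Against MEF, 4 were lower and 2 higher in CFAE+8+MSC and in CFAE+6, and 6 were lower and 0 higher in CFAE+8. Among all genes tested, 15.6% were higher in CFAE+8+MSC and 14.3% in CFAE+6 than in CFAE+8. Relative to MEF, 31.3% to 32.2% of all genes were lower and 30.8% to 31.9% higher. Different markers carried the sums. Msln had 3.20 and 2.53 CPM in CFAE+8+MSC, 0.793 and 1.63 CPM in CFAE+6, 1.11 and 0.509 CPM in CFAE+8, against 98.5 and 103.9 CPM in MEF. Krt18, a keratin and the largest part of the sum in each cocktail, had 20.8 and 18.7 CPM in CFAE+8+MSC, 13.05 and 15.6 CPM in CFAE+6, 5.80 and 5.77 CPM in CFAE+8, against 5.23 and 6.50 CPM in MEF, and Krt18 and Krt8 were the markers higher than MEF. Lrrn4 was at 0 in all 3 cocktails and Upk3b in CFAE+8, and the part of these cells in the Cxcl14 values was not tested.

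Csf1 was graded. Its gene lies on chromosome 3 (107741048 to 107760469, minus strand, ENSMUSG00000014599). It had 60.9 and 56.3 CPM in CFAE+8+MSC, 64.2 and 67.1 CPM in CFAE+6, 120.1 and 119.6 CPM in CFAE+8, against 373 and 382 CPM in MEF. Against MEF it was 6.44-fold lower in CFAE+8+MSC (log2 change -2.69 ± 0.06, adjusted p = 1.59e-25), 5.75-fold lower in CFAE+6 (-2.52 ± 0.06, adjusted p = 4.93e-25) and 3.15-fold lower in CFAE+8 (-1.66 ± 0.05, adjusted p = 3.35e-21). Its direction between cocktails was opposite to that of Cxcl14. Set against CFAE+8, Csf1 was 2.05-fold lower in CFAE+8+MSC (log2 change -1.03 ± 0.06, adjusted p = 7.35e-14) and 1.83-fold lower in CFAE+6 (-0.87 ± 0.06, adjusted p = 3.68e-12). The lowest pair, CFAE+8+MSC and CFAE+6, did not differ past the threshold (-0.16 ± 0.07, 95% interval unadjusted for the number of genes -0.30 to -0.03, adjusted p = 0.118).

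Macrophage markers fell with Csf1 against MEF. Of 14 tested markers, 13 were lower in CFAE+8+MSC, 14 in CFAE+6 and 13 in CFAE+8, and Cd68 was the marker not called. Among all genes tested, 31.3% to 32.2% were lower than MEF in the cocktails. The summed level of all 15 markers was 26.2 and 28.6 CPM in CFAE+8+MSC, 29.8 and 27.0 CPM in CFAE+6, 46.5 and 47.7 CPM in CFAE+8, against 225 and 227 CPM in MEF. Lyz2, the lysozyme of macrophages, accounted for 4.24 and 2.98 CPM in CFAE+8+MSC, 7.58 and 6.25 CPM in CFAE+6, 14.9 and 14.7 CPM in CFAE+8, against 125 and 123 CPM in MEF. Csf1r, the receptor of Csf1 and itself on that list, had 1.56 and 2.98 CPM in CFAE+8+MSC, 1.76 and 2.23 CPM in CFAE+6, 2.05 and 2.12 CPM in CFAE+8, against 10.7 and 11.6 CPM in MEF. Csf1r shares 15.1% of its exon length with Hmgxb3 on the other strand and is uncertain. Only Itgam, in CFAE+8+MSC, was at 0, and it shares 68.7% of its exon length with Gm49368 and is uncertain. The part of macrophages in the levels of these signal genes was not tested.

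Cx3cl1, the membrane-bound chemokine (chromosome 8, 94772009 to 94782427, plus strand, ENSMUSG00000031778), was low throughout. It had 2.77 and 3.07 CPM in CFAE+8+MSC, 4.85 and 2.57 CPM in CFAE+6, 2.90 and 5.26 CPM in CFAE+8, against 13.6 and 12.8 CPM in MEF. Cocktail libraries overlapped each other and lay below MEF. The log2 change against MEF was -2.18 ± 0.26 in CFAE+8+MSC (adjusted p = 2.15e-08), -1.84 ± 0.25 in CFAE+6 (adjusted p = 2.13e-07) and -1.69 ± 0.24 in CFAE+8 (adjusted p = 6.22e-07). Against CFAE+8 the interval ran from -1.11 to 0.14 for CFAE+8+MSC and from -0.74 to 0.45 for CFAE+6, and neither comparison passed the threshold. The counts behind these levels were 32 and 34 in CFAE+8+MSC, 55 and 30 in CFAE+6, and 34 and 62 in CFAE+8.

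**Figure D2:**
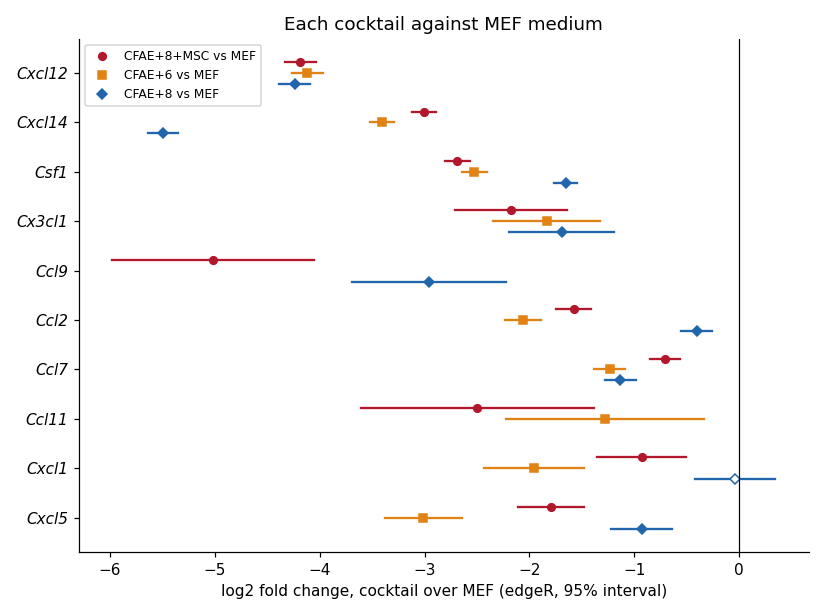
Log2 fold change over MEF (horizontal axis, edgeR) of the 10 genes in CFAE+8+MSC, CFAE+6 and CFAE+8, with 95% intervals as bars and open symbols for values that did not pass an adjusted p of 0.05. Cxcl12 lies between -4.24 and -4.12 in the 3 cocktails while Cxcl14 runs from -3.01 to -5.49, and Ccl9 in CFAE+6 and Ccl11 in CFAE+8, with 1 and 0 counts, are not drawn.

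Among the CC genes, Ccl2 and Ccl7 are neighbours on chromosome 11 and both monocyte attractants, yet they changed differently. Ccl2 (82035571 to 82037453, plus strand, ENSMUSG00000035385) had 40.8 and 38.7 CPM in CFAE+8+MSC, 32.1 and 24.8 CPM in CFAE+6, 91.8 and 87.1 CPM in CFAE+8, against 120.8 and 116.6 CPM in MEF. Ccl7 (82045712 to 82047525, plus strand, ENSMUSG00000035373) had 73.5 and 64.3 CPM in CFAE+8+MSC, 48.5 and 47.4 CPM in CFAE+6, 51.1 and 51.8 CPM in CFAE+8, against 114.2 and 111.6 CPM in MEF. Ccl2 was thus lowest in CFAE+6 and nearest to MEF in CFAE+8, whereas Ccl7 was lowest in CFAE+6 and CFAE+8.

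Against MEF, Ccl2 fell by 1.58 ± 0.08 on the log2 scale in CFAE+8+MSC (adjusted p = 2.15e-16), by 2.06 ± 0.09 in CFAE+6 (adjusted p = 9.69e-19) and by only 0.41 ± 0.07 in CFAE+8 (adjusted p = 2.18e-05). Ccl7 fell by 0.71 ± 0.07 in CFAE+8+MSC (adjusted p = 4.22e-10), by 1.24 ± 0.07 in CFAE+6 (adjusted p = 4.31e-15) and by 1.13 ± 0.07 in CFAE+8 (adjusted p = 2.72e-14). With MSC2530818, against CFAE+8, the directions were opposite: Ccl2 was lower (-1.17 ± 0.08, adjusted p = 3.08e-12) and Ccl7 higher (0.42 ± 0.07, adjusted p = 5.89e-05). In CFAE+6 against CFAE+8, Ccl2 was lower (-1.65 ± 0.09, adjusted p = 5.24e-15), and for Ccl7 no difference was found (-0.10 ± 0.08, 95% interval -0.26 to 0.06, adjusted p = 0.373). The number of Ccl7 counts per Ccl2 count, which needs no scaling between libraries, was 1.80 and 1.66 in CFAE+8+MSC, 1.51 and 1.91 in CFAE+6, 0.557 and 0.595 in CFAE+8, and 0.946 and 0.957 in MEF. The CFAE+8 libraries therefore had the lowest ratio, below MEF, and the libraries of the other cocktails the highest.

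Ccl11 and Ccl9 were rare transcripts. Ccl11 (chromosome 11, 82057823 to 82062955, plus strand, ENSMUSG00000020676) had 4 and 7 counts in CFAE+8+MSC, 18 and 8 in CFAE+6, 0 and 0 in CFAE+8, against 26 and 33 in MEF. It was the one gene of the 10 without a count in a medium. Taking 3 counts over a group as the level that a count of 0 allows, 0.128 CPM here, Ccl11 in CFAE+8 was at least 21.6-fold lower than in MEF (adjusted p = 2.49e-07). Against CFAE+8 it was at least 3.81-fold higher in CFAE+8+MSC (adjusted p = 0.00856) and at least 8.85-fold higher in CFAE+6 (adjusted p = 2.38e-04). The first of these calls was lost without CFAE+8+MSC replicate 2 (adjusted p = 0.0609) and without either CFAE+8 replicate (0.0595 and 0.0598). Against MEF, Ccl11 was also lower in CFAE+8+MSC (log2 change -2.50 ± 0.54, adjusted p = 2.14e-04) and in CFAE+6 (-1.28 ± 0.46, adjusted p = 0.0173). The CFAE+6 call was lost with DESeq2 (adjusted p = 0.109), without CFAE+6 replicate 2 (log2 change -0.79, adjusted p = 0.241) and without MEF replicate 2 (-1.13, adjusted p = 0.133). Without CFAE+6 replicate 1 it was -1.98 (adjusted p = 0.0118).

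Ccl9 (chromosome 11, 83572919 to 83578636, minus strand, ENSMUSG00000019122) had 1 and 5 counts in CFAE+8+MSC, 1 and 0 in CFAE+6, 10 and 16 in CFAE+8, against 99 and 85 in MEF. On the CPM scale this is 9.41 and 7.79 in MEF and at most 1.36 in a cocktail library. Ccl9 was 32.3-fold lower in CFAE+8+MSC (log2 change -5.02 ± 0.47, adjusted p = 1.50e-10) and 7.77-fold lower in CFAE+8 (-2.96 ± 0.36, adjusted p = 2.49e-08) than in MEF. With edgeR's prior count the first of these was -4.96, and it was -4.21 without CFAE+8+MSC replicate 1 (adjusted p = 2.09e-08) and -6.45 without CFAE+8+MSC replicate 2 (adjusted p = 6.94e-10). In CFAE+6, with 1 count in all, the MEF level was 198 times as high (95% counting interval 35.0 to 7848, adjusted p = 1.63e-11). Against CFAE+8, Ccl9 was lower in CFAE+8+MSC (-2.06 ± 0.66, adjusted p = 0.0186), a call lost without CFAE+8+MSC replicate 1 (-1.27, adjusted p = 0.218) and without CFAE+8 replicate 2 (-1.64, adjusted p = 0.160). Without CFAE+8+MSC replicate 2 it was -3.51 (adjusted p = 0.00975). The CFAE+8 level was higher than that of CFAE+6 by a ratio of 25.5 (4.18 to 1044, adjusted p = 5.59e-04). Without CFAE+6 replicate 2, the log2 change fitted for CFAE+6 was -6.44 against MEF (adjusted p = 5.78e-10) and -3.49 against CFAE+8 (adjusted p = 0.0126). Without CFAE+6 replicate 1, 0 counts were left, and both calls were kept (adjusted p = 4.87e-10 and 0.00235). Of the 50-base stretches of its transcripts, 1.97% also occur in other genes, and such reads could be split between them. For Cxcl5 the share was 0.693%, and for the other 8 genes it was 0.

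The neutrophil attractants Cxcl1 and Cxcl5 followed Ccl2 in their order across media. Cxcl1 (chromosome 5, 90891241 to 90893115, plus strand, ENSMUSG00000029380) had 6.32 and 5.52 CPM in CFAE+8+MSC, 3.79 and 2.05 CPM in CFAE+6, 10.2 and 11.8 CPM in CFAE+8, against 11.8 and 10.8 CPM in MEF. Cxcl5 (chromosome 5, 90759360 to 90761624, plus strand, ENSMUSG00000029371) had 6.67 and 9.32 CPM in CFAE+8+MSC, 3.35 and 3.51 CPM in CFAE+6, 14.0 and 15.0 CPM in CFAE+8, against 28.2 and 27.1 CPM in MEF. Both genes were lowest in CFAE+6, then in CFAE+8+MSC, then in CFAE+8.

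Cxcl1 was the gene that CFAE+8 did not change detectably against MEF (log2 change -0.04 ± 0.19, 95% interval -0.43 to 0.34, adjusted p = 0.865). It was lower than in MEF in CFAE+8+MSC (-0.93 ± 0.21, adjusted p = 2.55e-04) and in CFAE+6 (-1.96 ± 0.23, adjusted p = 1.85e-08). Cxcl5 was lower than in MEF in CFAE+8+MSC (-1.79 ± 0.15, adjusted p = 2.53e-11), in CFAE+6 (-3.01 ± 0.18, adjusted p = 4.72e-15) and in CFAE+8 (-0.93 ± 0.14, adjusted p = 1.34e-06). Against CFAE+8, Cxcl1 was lower in CFAE+8+MSC (-0.89 ± 0.20, adjusted p = 0.00119) and in CFAE+6 (-1.91 ± 0.23, adjusted p = 1.65e-07). Cxcl5 was lower against CFAE+8 by similar amounts, in CFAE+8+MSC (-0.86 ± 0.16, adjusted p = 1.45e-04) and in CFAE+6 (-2.08 ± 0.19, adjusted p = 9.38e-10).

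By label, CFAE+8+MSC differs from CFAE+8 in the addition of MSC2530818, and CFAE+6 in the exchange of A-83-01 for E-616452. Doses are not given in the labels, nor whether paired libraries are separate cultures. A difference between cultures therefore cannot be told apart from the compounds. With MSC2530818, 3 of the 10 genes were higher (Cxcl14, Ccl7 and Ccl11) and 5 lower (Csf1, Ccl2, Cxcl5, Cxcl1 and Ccl9), where 29.3% of all genes tested were called, 15.6% higher and 13.8% lower. With E-616452 in place of A-83-01, 2 were higher (Cxcl14 and Ccl11) and 5 lower (Csf1, Ccl2, Cxcl5, Cxcl1 and Ccl9), where 26.6% were called, 14.3% higher and 12.3% lower. The median log2 change of the 10 genes was -0.67 in CFAE+8+MSC and -0.51 in CFAE+6, where the median of all genes tested was -0.0045 and 0.00088. These counts and medians are not a test of the 10 genes as a set, which were chosen with earlier results known. Both comparisons use the same CFAE+8 libraries, so their likeness is not independent.

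**Figure D3:**
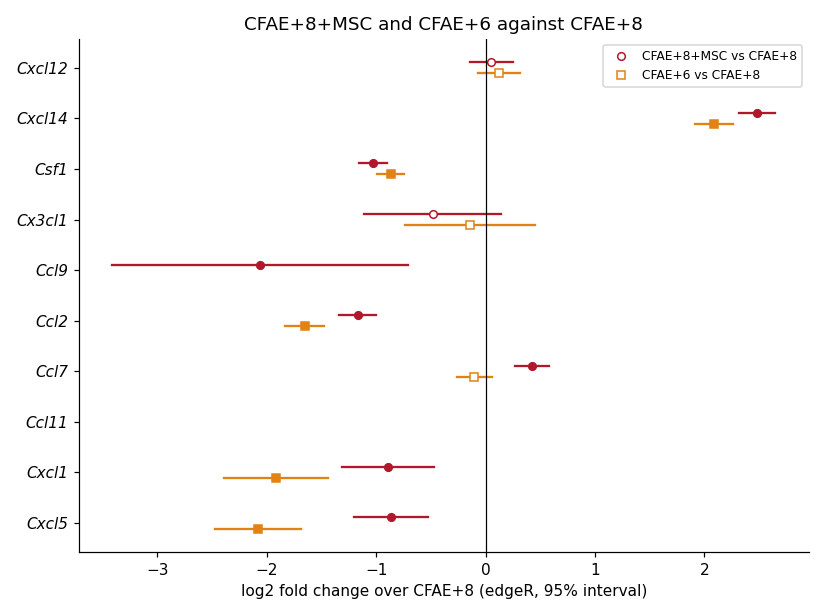
Log2 fold change over CFAE+8 (horizontal axis, edgeR) of the 10 genes in CFAE+8+MSC and CFAE+6, with 95% intervals as bars and open symbols for values that did not pass an adjusted p of 0.05. Cxcl14 lies at 2.48 and 2.09, Csf1, Ccl2, Cxcl1 and Cxcl5 lie below 0 in both, and Ccl11, with 0 counts in CFAE+8, and Ccl9 in CFAE+6, with 1 count, are not drawn.

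Set against each other, CFAE+8+MSC and CFAE+6 differed less. Of the 10 genes, 5 were higher in CFAE+8+MSC and 0 lower, with 10.5% of all genes tested called, 6.21% higher and 4.27% lower. The median log2 change of the 10 genes was 0.44, and that of all genes tested was -0.0042. Cxcl5 was 2.32-fold higher (log2 change 1.22 ± 0.21, adjusted p = 1.77e-04), Cxcl1 2.03-fold (1.02 ± 0.25, adjusted p = 0.00739), Ccl7 1.44-fold (0.52 ± 0.08, adjusted p = 1.37e-05), Ccl2 1.40-fold (0.48 ± 0.10, adjusted p = 8.65e-04) and Cxcl14 1.32-fold (0.40 ± 0.06, adjusted p = 6.09e-05). Without CFAE+6 replicate 2, the calls of Ccl2 (0.31, adjusted p = 0.0647) and Cxcl1 (0.64, adjusted p = 0.204) were lost, and without CFAE+8+MSC replicate 1 that of Cxcl1 was lost (0.92, adjusted p = 0.0721). The other 5 genes, Csf1, Cxcl12, Cx3cl1, Ccl9 and Ccl11, had adjusted p from 0.118 to 0.745. These media differ in both MSC2530818 and the receptor inhibitor. Because the 10 genes were chosen with earlier results known, no result about them as a set is read from this count or median.

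The members sit in clusters whose other genes were measured as well. The genes Ccl2, Ccl7, Ccl11, Ccl12 and Ccl8 lie within 81.2 kb on chromosome 11. Ccl12, another mouse ligand of Ccr2, went the other way from Ccl2 against MEF: it had 4.94 and 5.06 CPM in CFAE+8+MSC, 5.55 and 6.59 CPM in CFAE+6, 13.7 and 11.03 CPM in CFAE+8, against 0.0950 and 0.183 CPM in MEF. With 3 counts in MEF, the ratio over MEF was 35.7 in CFAE+8+MSC (95% counting interval 11.9 to 176), 43.4 in CFAE+6 (14.6 to 213) and 88.2 in CFAE+8 (29.9 to 430). Ccl8 was higher than MEF too, with log2 changes of 2.26 ± 0.23 in CFAE+8+MSC (adjusted p = 1.00e-09), 2.45 ± 0.23 in CFAE+6 (adjusted p = 1.21e-10) and 1.54 ± 0.25 in CFAE+8 (adjusted p = 3.47e-06). Within this stretch Ccl2, Ccl7 and Ccl11 fell against MEF and Ccl12 and Ccl8 rose, in each of the 3 cocktails.

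On chromosome 5, Cxcl5, Ppbp, Pf4, Cxcl3, Cxcl15, Cxcl1 and Cxcl2 lie within 146.6 kb. Ppbp, which encodes a platelet chemokine, was opposite to Cxcl1 and Cxcl5 against CFAE+8. It had 9.44 and 8.59 CPM in CFAE+8+MSC, 6.70 and 4.45 CPM in CFAE+6, 0.854 and 1.44 CPM in CFAE+8, against 7.22 and 6.78 CPM in MEF. Against CFAE+8 it was higher in CFAE+8+MSC (2.97 ± 0.29, adjusted p = 2.76e-09) and in CFAE+6 (2.28 ± 0.31, adjusted p = 1.77e-06). In CFAE+8+MSC against CFAE+6 it was higher (0.70, adjusted p = 0.0406), as were Cxcl1 and Cxcl5. Pf4, platelet factor, had the reverse pattern, with log2 changes against CFAE+8 of -2.48 ± 0.37 in CFAE+8+MSC (adjusted p = 5.26e-06) and -1.74 ± 0.34 in CFAE+6 (adjusted p = 2.19e-04). Cxcl2, which follows Cxcl1 in this order and is likewise a Cxcr2 ligand, had 1.65 and 1.63 CPM in CFAE+8+MSC, 0.264 and 0.171 CPM in CFAE+6, 2.65 and 2.71 CPM in CFAE+8, against 0.285 and 0.0916 CPM in MEF. Like Cxcl1 it was lower in CFAE+6 than in CFAE+8 (-3.63 ± 0.58, adjusted p = 1.88e-05), and in CFAE+8 it was higher than in MEF (3.84 ± 0.62, adjusted p = 3.36e-06), where Cxcl1 was not called. Ccl6, which lies beside Ccl9, fell with it against MEF, by 4.85 in CFAE+8+MSC (adjusted p = 1.12e-11), 3.23 in CFAE+6 (adjusted p = 6.39e-10) and 2.40 in CFAE+8 (adjusted p = 2.79e-08) on the log2 scale.

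**Figure D4:**
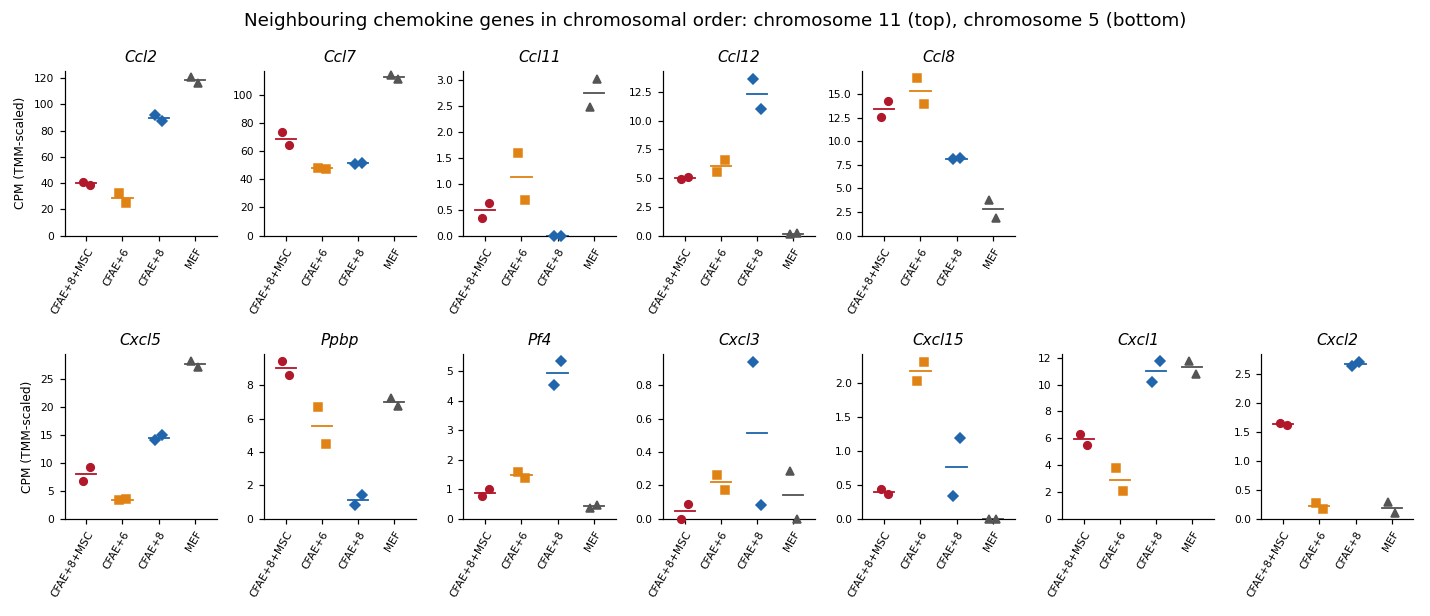
CPM (scaled by TMM, vertical axes from 0) of the chemokine genes on chromosome 11 (top row) and chromosome 5 (bottom row) in chromosomal order, with points for the 2 libraries of CFAE+8+MSC, CFAE+6, CFAE+8 and MEF and lines for their mean. Ccl2, Ccl7 and Ccl11 are highest in MEF while Ccl12 and Ccl8 are lowest there, and Ppbp is lowest and Pf4 highest in CFAE+8.

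Over the 29 other chemokine ligands listed, 13 passed the filter on low counts. Of these 13, 4 were higher and 3 lower in CFAE+8+MSC than in MEF, 4 and 3 in CFAE+6, and 5 and 3 in CFAE+8. Against CFAE+8, 2 were higher and 4 lower in CFAE+8+MSC, and 3 and 4 in CFAE+6. Among all genes tested, 30.8% to 31.9% were higher and 31.3% to 32.2% lower than MEF in the cocktails. Against CFAE+8, 15.6% were higher and 13.8% lower in CFAE+8+MSC, and 14.3% and 12.3% in CFAE+6. The 10 genes and this list were chosen with earlier results of these data known. The median log2 change of the 13 other chemokines against MEF was 0.37 in CFAE+8+MSC, 0.22 in CFAE+6 and 0.22 in CFAE+8. No result about this list, and no contrast with the 10 genes, is read from these counts or medians.

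Receptors of these ligands were mostly scarce. Ccr2, the receptor of Ccl2 and Ccl7, had 7 and 0 counts in CFAE+8+MSC, 0 in CFAE+6 and CFAE+8, and 0 and 2 in MEF, and Cxcr2 had 1 count in all 8 libraries. Ackr3, the atypical receptor that takes up Cxcl12, had the most counts of those listed, with 32.8 and 36.5 CPM in CFAE+8+MSC, 43.5 and 44.7 CPM in CFAE+6, 35.5 and 35.9 CPM in CFAE+8, against 88.9 and 79.6 CPM in MEF. It fell with its ligand, but less: its log2 change against MEF was -1.28 ± 0.08 in CFAE+8+MSC (adjusted p = 4.13e-14), -0.93 ± 0.08 in CFAE+6 (adjusted p = 2.47e-11) and -1.24 ± 0.08 in CFAE+8 (adjusted p = 7.71e-14). Cxcr4, the signalling receptor of Cxcl12, was low and higher than in CFAE+8 in CFAE+8+MSC (2.09 ± 0.53, adjusted p = 0.00291) and in CFAE+6 (1.87 ± 0.54, adjusted p = 0.00953). Of the 27 receptors listed, 10 were tested. Of these, 4 were higher and 2 lower than MEF in CFAE+8+MSC, 3 and 2 in CFAE+6, and 1 and 3 in CFAE+8. Among all genes tested, 30.8% to 31.9% were higher and 31.3% to 32.2% lower. No result about the receptor list is read from these counts.

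Of 8 other stromal growth factors of blood cells tested, 3 were higher in each cocktail than in MEF, and 1 was lower in CFAE+8+MSC, 2 in CFAE+6 and 2 in CFAE+8. Of all genes tested, 30.8% to 31.9% were higher and 31.3% to 32.2% lower in the cocktails, and no result about the list is read from these counts. Il34, which like Csf1 signals through Csf1r, was higher than MEF in CFAE+8+MSC (log2 change 0.97 ± 0.22, adjusted p = 4.20e-04), in CFAE+6 (0.66 ± 0.23, adjusted p = 0.0138) and in CFAE+8 (0.89 ± 0.22, adjusted p = 0.00102). Flt3l, a growth factor of dendritic cells that shares 22.1% of its exon length with another gene and is uncertain, was lower than MEF in CFAE+8+MSC (-2.39 ± 0.44, adjusted p = 2.69e-05), in CFAE+6 (-2.34 ± 0.44, adjusted p = 3.14e-05) and in CFAE+8 (-2.52 ± 0.45, adjusted p = 1.50e-05). Lif, a cytokine that supports stem cells, moved like Csf1 between cocktails and was lower than CFAE+8 in CFAE+8+MSC (-0.58 ± 0.11, adjusted p = 2.40e-04) and in CFAE+6 (-0.79 ± 0.12, adjusted p = 4.76e-06). Unlike Csf1, Lif was higher in CFAE+8 than in MEF (0.66, adjusted p = 1.38e-05).

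Of 7 proteases that cut chemokines, 4 were higher and 1 lower than MEF in CFAE+8+MSC, 3 and 1 in CFAE+6, and 2 and 2 in CFAE+8. Of all genes tested, 30.8% to 31.9% were higher and 31.3% to 32.2% lower than MEF in the cocktails. No result about the list is read from so few genes. Mmp13 was higher in CFAE+8+MSC than in CFAE+8 (1.41 ± 0.07, adjusted p = 1.59e-16). Dpp4, which clips Cxcl12, was higher than CFAE+8 in CFAE+8+MSC (1.22 ± 0.26, adjusted p = 6.01e-04) and in CFAE+6 (1.39 ± 0.26, adjusted p = 1.23e-04). Adam10, a sheddase of Cx3cl1, was lower than MEF in CFAE+6 (-0.23 ± 0.05, adjusted p = 6.23e-04) and in CFAE+8 (-0.21, adjusted p = 0.00119). In CFAE+8+MSC it had 184.5 and 192.3 CPM, against 196.9 and 213.1 CPM in MEF.

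Genes of inflammatory signalling include the NF-kappa-B subunits and the receptors upstream of them. The list was chosen with earlier results of these data known, and no result about it as a set is read from its counts. Of 22 tested, 15 were lower and 3 higher in CFAE+8+MSC than in MEF, 17 and 3 in CFAE+6, and 12 and 7 in CFAE+8. Against CFAE+8, 15 were lower and 1 higher in CFAE+8+MSC, and 11 and 1 in CFAE+6. Among all genes tested, 31.3% to 32.2% were lower and 30.8% to 31.9% higher than MEF in the cocktails. Set against CFAE+8, 13.8% of all genes were lower and 15.6% higher in CFAE+8+MSC, and 12.3% and 14.3% in CFAE+6. In this list, Cebpb, Cebpd, Nfkb2, Nfkbib and Myd88 share 11.3% to 20.7% of their exon length with genes on the other strand and are uncertain. Nfkbia, the inhibitor that holds NF-kappa-B in the cytoplasm, had the order of Ccl2 and Cxcl1 between cocktails but not against MEF: it had 77.3 and 72.5 CPM in CFAE+8+MSC, 59.3 and 60.9 CPM in CFAE+6, 103.7 and 113.0 CPM in CFAE+8, against 25.8 and 25.5 CPM in MEF. Zfp36, which speeds the decay of cytokine mRNAs, was lower than CFAE+8 in CFAE+8+MSC (-0.75 ± 0.08, adjusted p = 1.85e-08) and in CFAE+6 (-0.84 ± 0.08, adjusted p = 2.39e-09). Tlr4, the lipopolysaccharide receptor, fell against MEF by 4.07 ± 0.23 on the log2 scale in CFAE+8+MSC (adjusted p = 1.04e-15), by 3.67 ± 0.21 in CFAE+6 (adjusted p = 3.20e-15) and by 3.48 ± 0.21 in CFAE+8 (adjusted p = 6.23e-15).

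Promoter sequence was at hand for 6 of the 10 genes (RefSeq, GRCm38.p6), and not for Ccl2, Ccl7, Ccl11 and Cxcl5. Those of Cxcl1, Csf1 and Ccl9 are printed because these genes were lower in CFAE+8+MSC and in CFAE+6 than in CFAE+8. Ccl2 and Cxcl5 were lower in both too, so whether a motif goes with the lowered genes cannot be read here. Each run is the 250 bases before the start of transcription, with letters that match the NF-kappa-B consensus in capitals. The Cxcl1 run is chr5:90890995-90891244 on the plus strand. Its match begins 71 bases before the start and holds the motif in 2 overlapping positions. The Csf1 run is chr3:107760470-107760719 on the minus strand, with a match that begins 154 bases before the start and fits on the opposite strand. The Ccl9 run is chr11:83578637-83578886 on the minus strand, with a match that begins 35 bases before the start, also on the opposite strand.
Cxcl1: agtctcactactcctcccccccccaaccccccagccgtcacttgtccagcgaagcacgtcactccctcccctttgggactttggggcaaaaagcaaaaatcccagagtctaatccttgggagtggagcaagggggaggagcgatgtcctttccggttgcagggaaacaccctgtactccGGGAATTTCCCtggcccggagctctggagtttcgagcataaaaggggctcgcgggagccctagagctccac
Csf1: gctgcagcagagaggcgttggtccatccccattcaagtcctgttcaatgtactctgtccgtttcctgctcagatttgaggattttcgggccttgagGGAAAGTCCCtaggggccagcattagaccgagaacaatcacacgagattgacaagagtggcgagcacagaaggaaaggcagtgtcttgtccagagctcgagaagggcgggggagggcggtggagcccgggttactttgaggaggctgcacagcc
Ccl9: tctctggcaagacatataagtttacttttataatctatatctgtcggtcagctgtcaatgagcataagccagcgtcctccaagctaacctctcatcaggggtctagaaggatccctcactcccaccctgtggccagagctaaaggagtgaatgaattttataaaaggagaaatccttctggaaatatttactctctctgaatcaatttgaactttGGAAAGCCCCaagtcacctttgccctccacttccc

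The motif, searched on both strands, was not found before Cxcl12, Cxcl14 or Cx3cl1, in windows of 300 bases that run 50 bases past the start. The same windows hold it in 8.46% of 32851 promoters. The AP-1 motif TGANTCA was found before Ccl9 alone of these 6 genes, and 7.81% of promoters hold it. The cAMP response element TGACGTCA was in none of the 6 windows and in 1.79% of promoters. A match describes letters only and does not show that a factor binds there.

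The genes whose levels ran most like each member's were taken by the distance between the 4 group means on the log2 scale, each gene centred on its own mean, among up to 11479 protein-coding genes. The distance is a description over 4 media. Nearest to Ccl2 were Zc3h12a at 0.286, Tnfrsf1b and Hacd4. Zc3h12a encodes an RNase that degrades cytokine mRNAs, and Tnfrsf1b a TNF receptor. Nearest to Cxcl1 was Ccl2 itself at 0.506, then Srp54b and Tnfrsf1b, and nearest to Cxcl5 were Tlr2 at 0.480, Zc3h12a and Ccl2. Csf1 was nearest to Adam33 at 0.131, Sqor and Osmr, and Cx3cl1 to Vdr at 0.0410, Dagla and Gyg. Cxcl12 was nearest to Dusp27 at 0.189, Slc22a18 and Adgrg2, and Cxcl14 to Siglecg at 0.259, Fam180a and Sorbs2. Ccl7 was nearest to Rock2 at 0.0804, Lpp and Traf5. Ccl9 was nearest to Wisp2 at 0.594, Msr1 and Pax9, and Ccl11 to Igfbp5 at 0.446, Gabrb1 and Medag. Among pairs of the 10 genes, Ccl2 and Cxcl1 were closest at 0.506 and Ccl9 and Ccl11 farthest apart at 4.11.

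Endothelial markers were tested because endothelium makes Cx3cl1 and Cxcl12. Of 6 tested, 3 were higher in each cocktail than in MEF, and 2 were lower in CFAE+8+MSC, 3 in CFAE+6 and 2 in CFAE+8. Among all genes tested, 30.8% to 31.9% were higher and 31.3% to 32.2% lower. The summed level of the 9 listed was 147 and 141 CPM in CFAE+8+MSC, 138 and 128 CPM in CFAE+6, 102 and 89.2 CPM in CFAE+8, against 109 and 119 CPM in MEF. These sums hide opposite changes. Eng had 89.2 and 98.6 CPM in MEF and 30.4 to 38.0 CPM in the cocktail libraries. Esam had 1.14 and 1.19 CPM in MEF and 33.5 to 60.1 CPM in the cocktail libraries. Tie1 was at 0 in CFAE+8+MSC, CFAE+8 and MEF, Emcn in CFAE+8+MSC and CFAE+6, and Cldn5 in MEF. Fibroblast markers split, with 4 of 10 higher and 6 lower than MEF in each cocktail, and Thy1, Pdgfra, Lum and Fap were those higher. The part of cell makeup in the values of the 10 genes was not tested.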

How the data were processed

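RNA of 8 libraries was measured. The deposited table holds a raw count per gene and library, which the authors made with featureCounts of Subread on mm10, per the submitters' processing notes, which also name DESeq2. Versions, aligner and strand setting: not given in the sources used here. Libraries came from the NEBNext Ultra kit, per the labels, which does not mark strand, so overlapping genes cannot be told apart. Exons of the 10 genes overlap no other gene in GENCODE M21.

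Groups came from the sample titles. The filterByExpr function of edgeR 4.0.16 (R 4.3.3) took out weakly counted genes, leaving 15470 of 28024 genes with any count and 99.85% of the counts. TMM-scaled CPM are levels, and TPM used the gene lengths of the table. The test was edgeR's quasi-likelihood F test on all 8 libraries (4 residual degrees of freedom, common biological coefficient of variation 0.0445), with Benjamini-Hochberg adjustment over all genes tested and calls below 0.05. SE is the size of the unshrunken coefficient divided by the root of F, and 95% intervals use the t distribution. List medians use coefficients with edgeR's prior count. Floors of 3 counts over a group and counting intervals cover counting error only. The fit was tested on simulated data.

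The members and lists were chosen with earlier results of these data known. The lists were other chemokine ligands, receptors, stromal growth factors of blood cells, chemokine-cutting proteases, inflammatory signalling, and macrophage, endothelial, mesothelial and fibroblast markers. All members were named, with up to 4 genes per list and comparison with the smallest adjusted p, and the 3 protein-coding genes nearest to each member with at least 5 CPM in 1 group. Cluster neighbours, Ccr2, Cxcr2, Lyz2, Nfkbia, uncertain genes, markers at 0 or not called, and the fibroblast markers higher than MEF were named in addition where this rule did not take them, with their values known. Alternatives were DESeq2 1.42.0, other scalings, no filter, fits on the groups compared alone, a replicate block and leaving out each library.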

Additional observations from a re-analysis of the deposited data

How the results depend on the processing

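Of 594 recomputed values for the 10 genes, 576 kept their direction and their side of the threshold, 11 kept their direction but missed it, and 7 changed sign. All 7 were differences that did not pass the threshold to begin with. For Cxcl1 in CFAE+8 against MEF the log2 change was 0.067 without CFAE+8 replicate 1 and 0.025 without MEF replicate 1, in a range of -0.15 to 0.067 when a library was left out. For Cxcl12 in CFAE+8+MSC against CFAE+8 it was -0.057 without CFAE+8 replicate 1, in a range of -0.057 to 0.18. For Cx3cl1 in CFAE+8+MSC against CFAE+8 it was 0.013 without CFAE+8 replicate 2 (range -0.84 to 0.013). In CFAE+6 against CFAE+8 it was 0.25 without CFAE+6 replicate 2 and 0.35 without CFAE+8 replicate 2 (range -0.66 to 0.35), and in CFAE+8+MSC against CFAE+6 it was 0.19 without CFAE+6 replicate 1 (range -0.73 to 0.19). The count of called members in CFAE+8+MSC against CFAE+6 was 3 to 5 when a library was left out, against 5 with all. Over all genes, DESeq2 called 997 in that comparison where edgeR called 1621, and leaving out a library gave 947 to 1451. In CFAE+6 against CFAE+8, edgeR called 4116, and leaving out a library gave 2720 to 3373. The cause was not tested, beyond the smaller number of libraries. In fits on the groups compared alone, Ccl11 against CFAE+8 did not pass the filter on low counts. Other scalings moved the median of all genes by at most 0.04 on the log2 scale. The replicate numbers are not said to pair libraries, and the correlation of replicate differences was -0.02 to 0.05 over 6 pairs of groups. With the replicate number as a block, 10, 10, 9, 8, 7 and 5 members were called in the 6 comparisons in the order of the report, as without it. Depth limits Ccl9 and Ccl11, with at most 18 counts in a cocktail library.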
